A study of Rattus norvegicus with 196 samples.

Results

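The 8 samples labelled PVN in a bulk RNA-seq study of chronic fluoxetine in rats were compared between fluoxetine (FT) and control (Sham), 4 against 4. They were chosen by their brain region label alone, out of 196 samples from 25 region labels (98 FT and 98 Sham). FT rats received fluoxetine in their drinking water at 18 mg/kg body weight per day for 6 weeks, and Sham rats received water alone. All were male Long-Evans rats, with no stress or genetic manipulation named in the labels. The labels give an age of 2 months, which by the study's methods is the age at the start of the 6 weeks. Each sample is RNA from tissue punches of 10 animals pooled into one tube, so a sample is a pool and not an animal, and no spread between single rats can be read. The FT and Sham pools that carry the same replicate number (1, 3, 4 or 5) were processed side by side and were analysed as pairs.

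Fluoxetine is a selective serotonin reuptake inhibitor, which blocks the transporter that clears serotonin from the synapse. PVN is an abbreviation for a nucleus of the hypothalamus and for one of the thalamus. The hypothalamic paraventricular nucleus holds the neurons that release vasopressin, oxytocin and corticotropin-releasing hormone, and it drives the pituitary stress axis. The thalamic paraventricular nucleus is a midline group of glutamatergic neurons under the roof of the third ventricle, where choroid plexus lies.

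The levels of region markers in these punches were not those of the hypothalamic nucleus. Oxt (oxytocin) had 8, 83, 0 and 0 reads in Sham replicates 1, 3, 4 and 5, the order used for all values below, and 28, 919, 0 and 1 reads in FT. Avp (vasopressin) had 6, 25, 0 and 1 reads in Sham and 37, 303, 3 and 2 in FT. Replicates 4 and 5 therefore held at most 3 reads of either peptide in libraries of 10509906 counts or more, whereas replicate 3 was the highest of each group for both. A count of 0 allows up to 3 counts, or 0.27 CPM (counts scaled to a common library total) in Sham replicate 4, which covers counting error only.

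With CPM scaled across all regions, the Sham median of Oxt was 0.266 in PVN and 9.15 in the ventromedial hypothalamus (VMH), and that of Avp was 0.223 and 13.3. PVN ranked 8 of 25 regions for Oxt and 13 of 25 for Avp, and VMH ranked 1 for both. Of the 5 measured members of the thalamic list, Tcf7l2, Slc17a6 and Rora were high in PVN and Necab1 and Cartpt were not. Tcf7l2, a transcription factor of the thalamus, had a Sham median of 402 CPM in PVN (342 to 496), which ranked 2 behind the mediodorsal thalamus (MDT, 835 CPM) and ahead of the habenula (HB, 305 CPM). VMH had 43.2 CPM. Slc17a6, the vesicular glutamate transporter VGLUT2, also ranked 2 in PVN, at 291 CPM against 402 CPM in MDT, with VMH close behind at 212 CPM (rank 4). Rora ranked 3 in PVN (14.2 CPM), behind MDT (43.8 CPM) and the lateral hypothalamus (16.05 CPM), so it does not set thalamus apart from hypothalamus. Necab1, a neuronal calcium-binding protein, ranked 9 (10.96 CPM, against 3.67 CPM in VMH). Of the markers of neighbouring hypothalamic nuclei, Hcrt ranked 4 in PVN (13.4 CPM, against 56.7 CPM in VMH and 0.965 CPM in MDT). The other named members of that list ranked from 9 to 25. Cartpt, the CART peptide precursor, ranked 15 in PVN (16.7 CPM) and 3 in VMH (132.5 CPM), and it ranked 17 in MDT. A supplementary sheet of the study spells out PVN as a nucleus of the thalamus. The samples are called PVN here, as labelled, and the measured Oxt and Avp go against reading that label as hypothalamic. Ucn, the remaining named gene of the hypothalamic list, had at most 2 reads in a library. Its Sham median was 0 CPM in VMH as well and highest in the raphe (7.16 CPM), so Ucn does not mark hypothalamus in this series. Crh, Trh, Slc6a4 and Nr3c1 have no name in the sources used and are not analysed here.

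**Figure D1:**
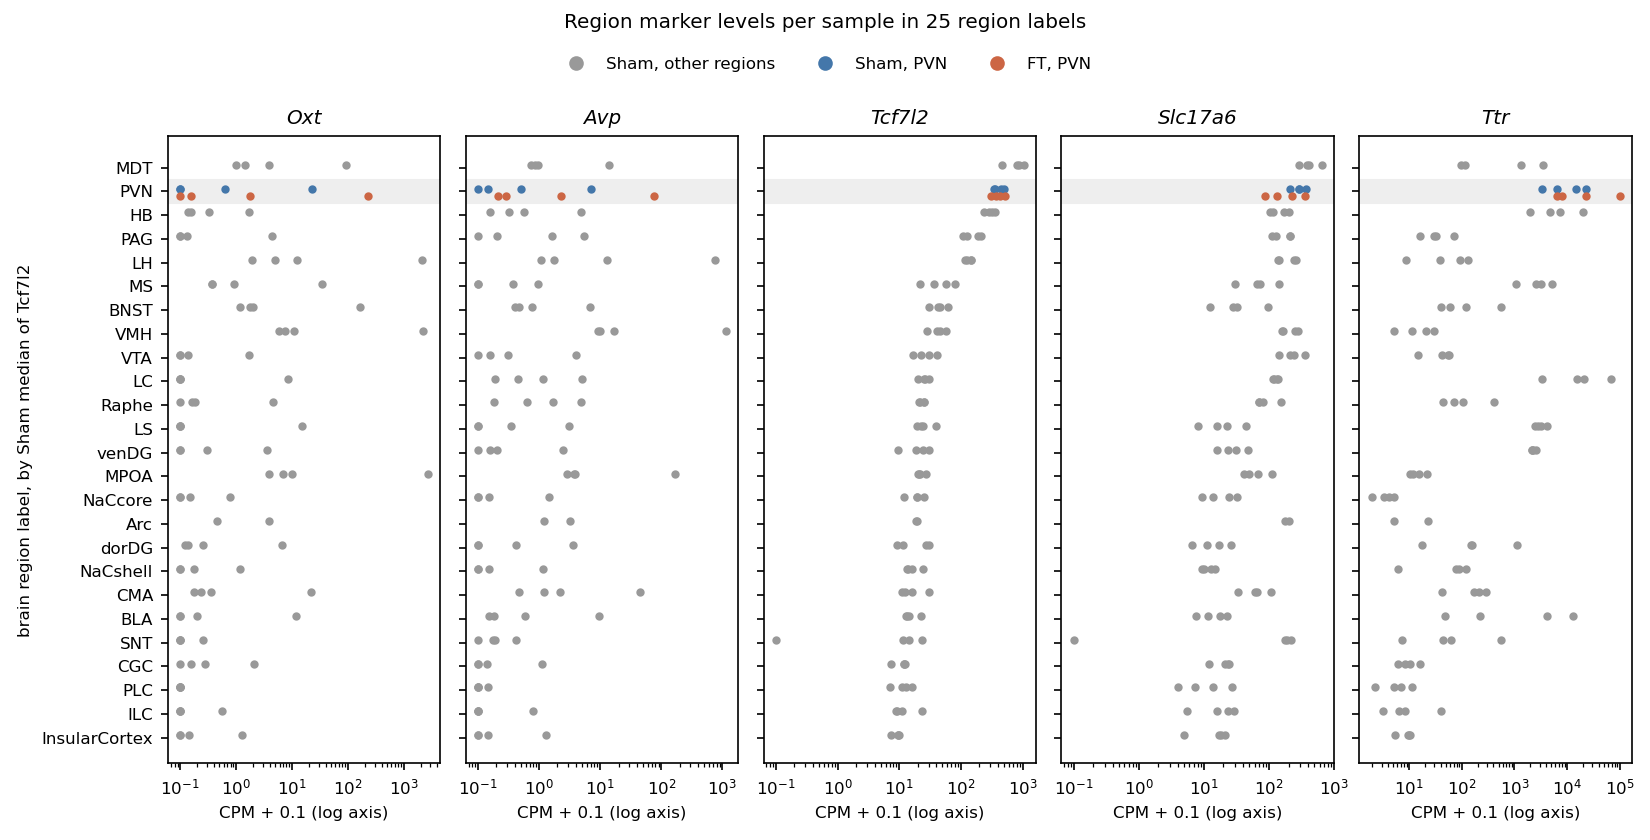
Levels of 5 region markers in each sample, as CPM + 0.1 on a log axis (x), for the 25 region labels (y, ordered by the Sham median of Tcf7l2). Grey points are Sham samples of other regions, blue points Sham PVN and orange points FT PVN; by its Sham median PVN ranked 2 for Tcf7l2, Slc17a6 and Ttr but 8 for Oxt and 13 for Avp.

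The 4 Sham PVN samples were then set against the 4 Sham MDT samples to place the punches relative to the thalamic region of the series. With edgeR's quasi-likelihood test and the replicate number as a block, 2061 of 13473 transcripts (15.3%) were called, 975 higher (7.24%) and 1086 lower (8.06%) in PVN. A transcript counted as called where its log2 fold change (log2FC) was at least 0.322 in size and its p, after Benjamini-Hochberg adjustment, did not exceed 0.1. All 9 measured choroid plexus and ependyma markers were called higher in PVN. Ttr, which encodes transthyretin, the main secreted protein of choroid plexus, ranged from 3303 to 23370 CPM in Sham PVN and from 95.1 to 3543 CPM in Sham MDT (log2FC 4.21 ± 0.81 SE, edgeR adjusted p = 0.0112), with overlap. Ttr was chosen here after its values were seen. Kcnj13, a potassium channel of the choroid epithelium, ranged from 29.2 to 188 CPM in PVN and from 1.93 to 7.98 CPM in MDT, with no overlap (log2FC 4.38 ± 0.52). It too was chosen after its values were seen.

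Of the 5 measured thalamic markers 3 were called lower in PVN than in MDT. Tcf7l2 differed by a log2FC of -0.90 ± 0.19 (edgeR adjusted p = 0.0185), Rora, a nuclear receptor of thalamic neurons, by -1.48 ± 0.19 (edgeR adjusted p = 0.00115) and Slc17a6 by -0.54 ± 0.16 (edgeR adjusted p = 0.0583). Oxt was lower in PVN as well (log2FC -2.77 ± 0.62, edgeR adjusted p = 0.0228). Of 10 general neuronal markers 6 were called lower and 0 higher. In bulk tissue, fewer cells of a type and less RNA per cell cannot be told apart.

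Libraries of replicate 3 stood apart in both groups. PVN libraries held 5334038 to 14251384 counts on transcripts, and Sham replicate 3 was the smallest. The 50 largest transcripts took 63.6% and 65.1% of the counts of replicate 3 (Sham and FT), against 26.4% to 33.6% in the other 6 libraries. Much of this came from 2 transcripts without a name, ENSRNOT00000069133 and ENSRNOT00000074325, which together took 43.6% of Sham and 40.2% of FT replicate 3. In the other 6 libraries they took 5.51% to 15.9%. Counts without replicate 3 are given below for each group of genes.

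Fluoxetine against Sham in PVN gave no transcript past the threshold in the edgeR fit, which tested 13881 transcripts (0.0% called), although 2208 of them (15.9%) had an unadjusted p under 0.05. Of these 1382 (9.96%) were higher and 826 (5.95%) lower in FT. The smallest adjusted p was 0.103. DESeq2, the tool of the study's methods, called 608 of 12007 transcripts (5.06%), 400 higher (3.33%) and 208 lower (1.73%), on the same counts with the same block. Limma-voom called 29 (0.209%), of which 20 were higher (0.144%) and 9 lower (0.0648%), and all 29 were among the DESeq2 calls. The call of any single PVN transcript thus depended on the tool, so the genes below are given with their 8 values and with the p of each tool. Without replicate 3 edgeR called 0 and DESeq2 177, of which 153 were among the 608. Replicate 3 was not alone in this, since DESeq2 called 161 without replicate 1, 311 without replicate 4 and 860 without replicate 5. In edgeR, pairs 1 and 3 alone gave 3985 calls and pairs 4 and 5 alone 87. With one pair left out, 679 to 1301 transcripts were higher and 587 to 1020 lower at p under 0.05 in edgeR. The same direction in all 4 pairs was found for 3559 transcripts (25.6%), and FT and Sham values did not overlap for 329 higher (2.37%) and 202 lower (1.46%).

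Genes carry names here only where a supplementary sheet of the study pairs transcript and name, and that sheet lists transcripts which the study itself called in at least 2 regions on these samples. Such genes are not independent evidence of a direction. Of 1831 named transcripts tested 551 (30.1%) were higher and 231 (12.6%) lower at an unadjusted p under 0.05, and DESeq2 called 15.5% of them higher and 7.21% lower. Over all 13881 transcripts past the edgeR filter the DESeq2 shares were 2.85% and 1.5%. The median log2FC was 0.23 over named and 0.04 over all transcripts tested. Counts over gene groups below are to be read against the named transcripts.

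The 12 named transcripts with the smallest edgeR p among those higher in FT in all 4 pairs were Ly6h, Rps2, Scand1, Arpc4, Mrps34, Igfbp2, Gapdh-ps1, RGD1564688, Vat1, Fxyd1, Ttc9b and RPS2-PS6. Their log2FC ran from 1.30 to 2.46, their edgeR adjusted p from 0.103 to 0.112 and their DESeq2 adjusted p from 2.2e-05 to 0.00131. Vat1, a vesicle membrane protein, had 90.9, 98.4, 70.5 and 69.3 CPM in Sham and 252, 235, 152 and 178 CPM in FT. It was the one transcript of the 12 whose groups did not overlap (log2FC 1.30 ± 0.23, edgeR adjusted p = 0.107, DESeq2 adjusted p = 0.000546). Igfbp2, a carrier of insulin-like growth factors, had 64.6, 187, 82.6 and 51.2 CPM in Sham and 297, 606, 139.6 and 217 CPM in FT. Its groups overlapped through Sham replicate 3, and the log2FC was 1.69 ± 0.30 (edgeR adjusted p = 0.107, DESeq2 adjusted p = 0.000106). Mrps34, a protein of the small subunit of the mitochondrial ribosome, had 20.8, 55.3, 19.01 and 18.5 CPM in Sham and 68.1, 147, 40.9 and 46.5 CPM in FT, again with Sham replicate 3 as the sample inside the FT range (log2FC 1.39 ± 0.24).

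Arpc4, a subunit of the Arp2/3 complex that branches actin filaments, had 208, 222, 57.5 and 151 CPM in Sham and 509.5, 490.2, 179 and 479 CPM in FT (log2FC 1.44 ± 0.25). Fxyd1, the sodium pump regulator phospholemman, had 67.99, 94.2, 4.53 and 45.4 CPM in Sham and 226, 401, 36.2 and 79.5 CPM in FT (log2FC 1.89 ± 0.34). FT exceeded Sham in every pair for both, while the levels of different replicate numbers overlapped. For Ly6h and Scand1 most reads lay in replicate 3. Ly6h, a modulator of nicotinic receptors, had 6.25, 142, 1.60 and 2.50 CPM in Sham and 21.9, 456, 7.55 and 6.06 CPM in FT. Scand1, a small SCAN domain protein, had 4, 116, 0 and 7 reads in Sham and 16, 812, 5 and 24 reads in FT, and the edgeR filter on low counts removed it when replicate 3 was left out (log2FC 2.46 ± 0.43 with all pairs). Rps2 and its copy RPS2-PS6, RGD1564688 and the pseudogene Gapdh-ps1 can share reads with near-identical loci, and their values are uncertain.

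The 12 named transcripts lower in FT in all 4 pairs with the smallest edgeR p were Synpr, Mis12, Fstl5, Capza1, B3galt1, Sec23a, Hhip, Snapc5, Snx10, Sypl1, Zfp597 and Opcml. Their log2FC ran from -2.48 to -1.16, their edgeR adjusted p from 0.103 to 0.146 and their DESeq2 adjusted p from 6.98e-05 to 0.00442. FT and Sham values were apart for 11 of the 12, Capza1 being the exception, against 1 of the 12 higher transcripts. Choosing by small p and by direction in all 4 pairs favours such values. Over all transcripts tested the shares apart were 1.46% lower and 2.37% higher. Part of the contrast lay in replicate 3, as without it 12 lower and 8 higher transcripts were apart. Synpr, synaptoporin, a membrane protein of synaptic vesicles, had 130.4, 54.4, 127 and 82.3 CPM in Sham and 47.3, 24.3, 38.3 and 31.3 CPM in FT. All 4 FT samples lay below the lowest Sham sample (log2FC -1.44 ± 0.24, edgeR adjusted p = 0.103, DESeq2 adjusted p = 6.98e-05). Mis12, a kinetochore protein, had 17.2, 3.88, 16.9 and 13.7 CPM in Sham and 1.23, 1.62, 3.63 and 3.10 CPM in FT (log2FC -2.48 ± 0.43, DESeq2 adjusted p = 6.98e-05). Its lowest Sham value was replicate 3, just above the highest FT value.

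Sec23a, a coat protein of vesicles that leave the endoplasmic reticulum, had 29.4, 21.04, 37.7 and 31.6 CPM in Sham and 8.65, 8.10, 18.7 and 11.7 CPM in FT (log2FC -1.40 ± 0.27). Hhip, a decoy receptor for hedgehog ligands, had 13.1, 11.97, 7.17 and 14.2 CPM in Sham and 3.36, 4.86, 2.78 and 3.23 CPM in FT (log2FC -1.72 ± 0.34). Opcml, a cell adhesion protein of neurons, had 61.7, 68.6, 79.7 and 56.98 CPM in Sham and 20.3, 32.7, 42.96 and 27.4 CPM in FT (log2FC -1.16 ± 0.25). None of the 3 had an FT sample inside the Sham range. Capza1, an actin filament capping protein, had 42.2, 15.5, 52.2 and 41.3 CPM in Sham and 6.07, 3.56, 24.3 and 14.03 CPM in FT, so that Sham replicate 3 lay inside the FT range (log2FC -1.86 ± 0.33). Fstl5, B3galt1 (a galactosyltransferase), Snapc5 (a subunit of the snRNA activating complex), Snx10 (a sorting nexin), Sypl1 (a relative of synaptophysin) and Zfp597 (a zinc finger protein) had log2FC between -1.95 and -1.24 and no overlap. Without replicate 3, all 12 lower and 8 of the 12 higher transcripts had groups that did not overlap, and DESeq2 gave an adjusted p of at most 0.1 for 23 of the 24, Scand1 having none. In edgeR the adjusted p of the other 23 was then 0.135 to 0.333.

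**Figure D2:**
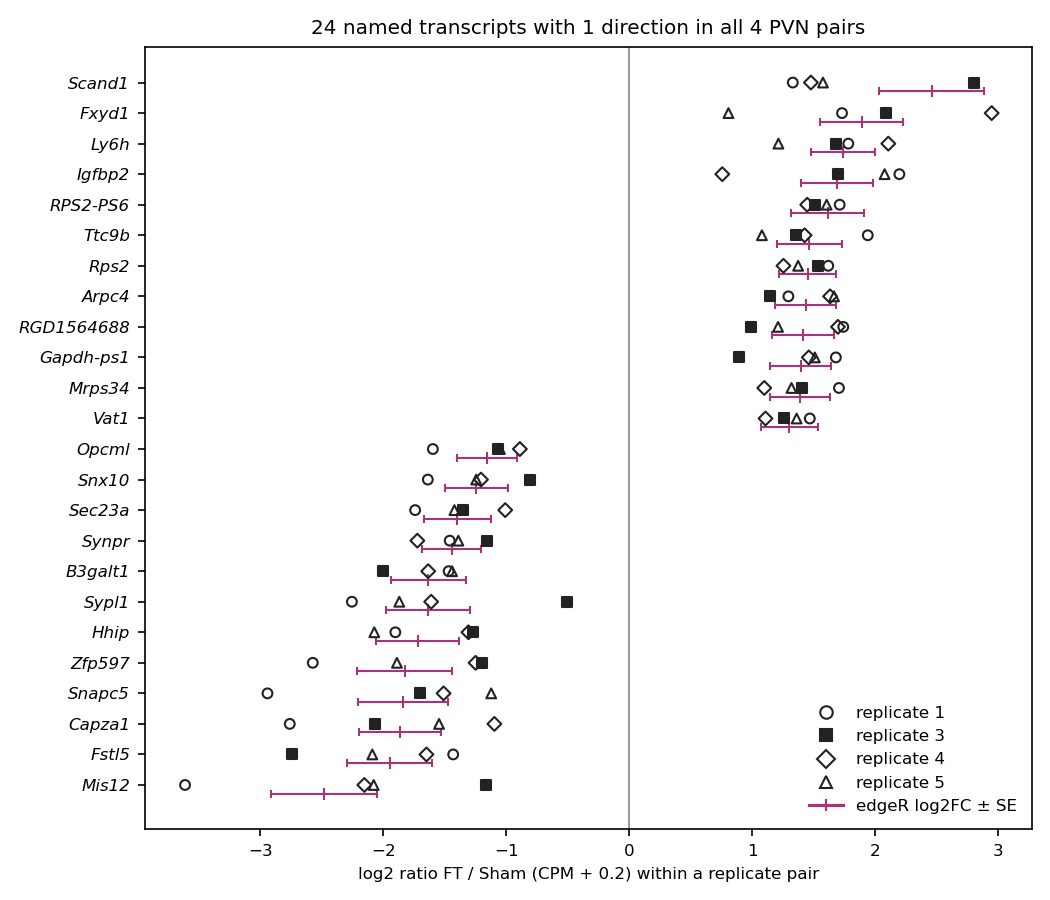
Log2 ratio of FT to Sham CPM (x, with 0.2 CPM added) within each replicate pair for the 24 named transcripts (y); symbols are replicates 1, 3, 4 and 5, and the bar is the edgeR log2FC with its standard error. All 4 ratios lie on one side of 0 for each transcript, which was a condition of their choice, and replicate 3 (filled) gives the highest ratio for Scand1. Among the lower transcripts it gives the ratio nearest to 0 for Synpr, Mis12, Snx10, Sypl1, Hhip and Zfp597, for the last 2 narrowly.

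Promoters of the transcripts that DESeq2 called were compared in base composition. The windows run from 250 bases before to 50 bases after the RefSeq start site of the GRCr8 build, and 1470 of the 1831 named transcripts (80.3%) matched one by symbol or synonym. The median promoter had 21 CG pairs and a GC content of 61.8% for 234 DESeq2 calls higher in FT, and 18 CG pairs and 59.7% for 111 lower in FT. All matched named transcripts had a median of 21 CG pairs (interquartile range 14 to 29) and 61.3%, and all 27457 promoters had 7 CG pairs (3 to 20) and 52.3%. Both medians thus lay within the interquartile range of the named transcripts. The promoters below belong to the first 2 named transcripts of each direction with an entry and show how widely CG content differed among them. They are Rps2 (chr10:14251598-14251897, plus strand, 30 CG pairs) and Scand1 (chr3:165279538-165279837, minus strand, 15) for higher, and Synpr (chr15:14182308-14182607, minus strand, 5) and Mis12 (chr10:56238067-56238366, plus strand, 22) for lower. Sequences are from RefSeq, 5′ to 3′ on the gene's strand, with each CG pair in capitals.
Rps2: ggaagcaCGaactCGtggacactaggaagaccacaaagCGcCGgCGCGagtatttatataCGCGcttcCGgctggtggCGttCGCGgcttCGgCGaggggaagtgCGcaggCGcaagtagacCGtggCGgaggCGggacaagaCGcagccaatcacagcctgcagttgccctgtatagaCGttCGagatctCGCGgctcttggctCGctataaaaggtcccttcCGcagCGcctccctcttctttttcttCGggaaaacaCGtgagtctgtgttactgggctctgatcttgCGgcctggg
Scand1: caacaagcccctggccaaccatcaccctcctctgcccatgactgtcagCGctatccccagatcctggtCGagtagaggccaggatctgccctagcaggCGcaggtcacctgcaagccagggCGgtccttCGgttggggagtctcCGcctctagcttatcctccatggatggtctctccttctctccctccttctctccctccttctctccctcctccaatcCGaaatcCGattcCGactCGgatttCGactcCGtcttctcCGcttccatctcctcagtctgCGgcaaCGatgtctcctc
Synpr: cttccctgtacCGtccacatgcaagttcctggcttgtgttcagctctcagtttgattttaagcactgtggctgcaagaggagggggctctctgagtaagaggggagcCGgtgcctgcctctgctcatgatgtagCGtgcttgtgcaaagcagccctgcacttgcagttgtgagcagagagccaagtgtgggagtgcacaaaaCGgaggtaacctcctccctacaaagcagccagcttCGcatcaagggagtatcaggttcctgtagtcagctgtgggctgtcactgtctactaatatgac
Mis12: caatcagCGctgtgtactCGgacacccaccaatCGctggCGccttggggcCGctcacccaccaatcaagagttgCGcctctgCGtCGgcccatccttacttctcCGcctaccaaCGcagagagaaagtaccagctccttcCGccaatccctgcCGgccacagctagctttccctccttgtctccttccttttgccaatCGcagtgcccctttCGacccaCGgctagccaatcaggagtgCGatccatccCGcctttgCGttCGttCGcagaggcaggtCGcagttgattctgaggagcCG

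Nuclear genes for mitochondria included many members higher in FT. Of 32 measured subunits of the respiratory chain and ATP synthase 26 had a log2FC above 0 (median 0.55), 13 were higher and 1 lower at an unadjusted edgeR p under 0.05, and DESeq2 called 9 higher and 1 lower. The shares higher were 40.6% at that p and 28.1% by DESeq2, against 30.1% and 15.5% of all named transcripts. Ndufa7, a subunit of complex I, had 155, 141, 45.1 and 79.8 CPM in Sham and 342, 328, 96.97 and 176 CPM in FT (log2FC 1.15 ± 0.23, edgeR adjusted p = 0.134, DESeq2 adjusted p = 0.00211). NDUFB4, of the same complex, had 3.995, 39.5, 4.60 and 4.15 CPM in Sham and 10.6, 83.9, 11.04 and 12.8 CPM in FT (log2FC 1.34 ± 0.27, DESeq2 adjusted p = 0.00465). FT exceeded Sham in every pair for both, with overlapping groups. A second transcript named Ndufb4 was called by DESeq2 in the same direction, and reads of the 2 may be split between them. Uqcrc2, a core protein of complex III, was the member called lower, from 117, 73.8, 181 and 99.97 CPM in Sham to 58.01, 53.5, 78.6 and 54.7 CPM in FT (log2FC -0.89 ± 0.24, DESeq2 adjusted p = 0.0327).

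The mitochondrial ribosome and import machinery had 34 of 39 members above 0 (median 0.59), with 16 higher (41.0%) and 0 lower at p under 0.05 and 11 higher (28.2%) and 0 lower by DESeq2. Besides Mrps34 this included Gadd45gip1, a protein of the mitochondrial ribosome, at 39.3, 130.4, 21.2 and 22.4 CPM in Sham and 75.8, 283, 49.4 and 50.4 CPM in FT (log2FC 1.11 ± 0.23, edgeR adjusted p = 0.146, DESeq2 adjusted p = 0.0059). Timm21 and Immp1l, of the import and processing machinery, had log2FC of -0.50 ± 0.29 and -0.44 ± 0.26 and passed no test. The 8 transcripts of the mitochondrial genome had 7 members below 0 (median -0.33), and none reached p under 0.05. MT-ND5, a complex I subunit, had 821, 1634, 1726 and 2144 CPM in Sham and 322, 705, 1629 and 1752 CPM in FT (log2FC -0.73 ± 0.34, edgeR adjusted p = 0.321), with the wider gaps in replicates 1 and 3. Without replicate 3 the medians of the nuclear groups were 0.36 and 0.54, and DESeq2 called 5 higher and 0 lower in each.

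Among 27 proteins of the cytosolic ribosome 19 had a log2FC above 0 (median 0.20), 9 were higher and 0 lower at p under 0.05, and DESeq2 called 7 higher and 0 lower. The shares higher, 33.3% at that p and 25.9% by DESeq2, compare with 30.1% and 15.5% of all named transcripts. The ratio depended on the pair, since the group median was 0.03, 0.99, 0.70 and -0.19 in pairs 1, 3, 4 and 5. Rpsa, a protein of the small subunit, had 309.9, 490.3, 83.0 and 309 CPM in Sham and 1053, 1351, 265 and 400.4 CPM in FT (log2FC 1.33 ± 0.31, DESeq2 adjusted p = 0.00298). Rpl23a, of the large subunit, had a lower value in FT in 4 of 4 pairs without passing a test (log2FC -0.49 ± 0.25). Many ribosomal proteins have near-identical pseudogenes, so single members are uncertain. Leaving out replicate 3 brought the group median to 0.02 and the DESeq2 calls to 2, and the median was 0.38, 0.34 and 0.58 without replicates 1, 4 and 5.

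Chromatin regulators had 16 of 44 members higher and 0 lower at p under 0.05 (median 0.34) and 9 higher and 0 lower by DESeq2. At 36.4% and 20.5%, the shares higher were near the 30.1% and 15.5% of all named transcripts. Sap30l, of the Sin3 histone deacetylase complex, had 9.81, 19.7, 10.7 and 13.5 CPM in Sham and 28.1, 23.01, 40.2 and 45.5 CPM in FT. Smarcd3, a subunit of the SWI/SNF remodelling complex, had 36.9, 33.98, 20.8 and 39.7 CPM in Sham and 142, 74.5, 41.04 and 56.98 CPM in FT. Both had groups that did not overlap, at log2FC 1.39 ± 0.33 and 1.14 ± 0.28 and DESeq2 adjusted p of 0.0127 and 0.024. Hdac8, a histone deacetylase, and Jmjd8, a Jumonji domain protein, had lower values in FT in all 4 pairs but passed no test (log2FC -0.57 ± 0.30 and -0.59 ± 0.30). DESeq2 called 1 chromatin regulator without replicate 3, in place of 9, and without replicate 4 the median was 0.05.

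The ubiquitin and proteasome group was mixed, with 15 of 45 higher and 5 lower at p under 0.05 (median 0.26) and 9 higher and 4 lower by DESeq2. Its shares (33.3% higher and 11.1% lower, by DESeq2 20.0% and 8.89%) were near those of named transcripts (30.1% and 12.6%, 15.5% and 7.21%). Otub1, a deubiquitinase, had 362, 253, 193 and 297 CPM in Sham and 1584, 495, 403 and 675 CPM in FT, with no overlap (log2FC 1.33 ± 0.29, edgeR adjusted p = 0.146, DESeq2 adjusted p = 0.00222). Usp20, of the same enzyme class, had no overlap either (log2FC 1.11 ± 0.25, DESeq2 adjusted p = 0.0107). In the opposite direction, Skp1, the adaptor of SCF ubiquitin ligases, had 1354, 839, 1616 and 831 CPM in Sham and 669, 461, 656 and 508 CPM in FT (log2FC -0.97 ± 0.28, DESeq2 adjusted p = 0.0115). Psmd10, an assembly chaperone of the proteasome, was lower too (log2FC -1.18 ± 0.30, DESeq2 adjusted p = 0.0285), and for both every FT value lay below every Sham value. Without replicate 3 DESeq2 called 2 members higher and 0 lower.

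**Figure D3:**
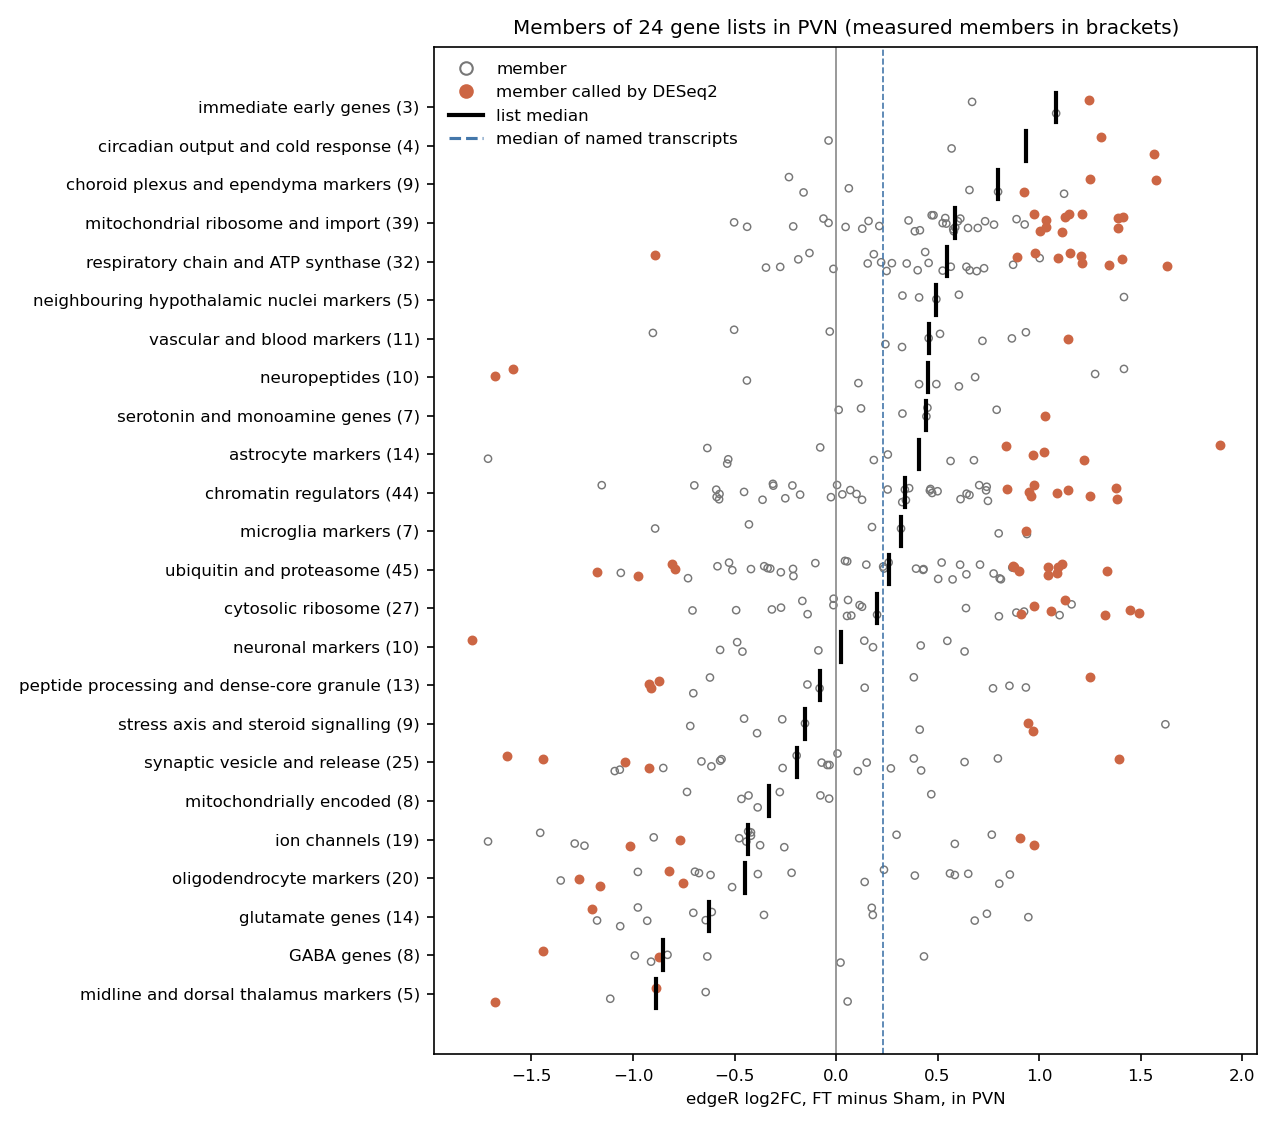
EdgeR log2FC of FT minus Sham (x) for the measured members of 24 gene lists (y); open circles are members, filled circles members that DESeq2 called, bars list medians and the dashed line the median of the named transcripts. Medians ran from -0.89 for thalamic markers to 1.08 for immediate early genes, with the nuclear mitochondrial lists right of the dashed line and the mitochondrially encoded list left of 0.

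Genes of the synapse and of excitability had more members below than above 0. Of 25 synaptic vesicle and release genes 16 were below 0 (median -0.19), 1 was higher and 6 lower at p under 0.05, and DESeq2 called 1 higher and 4 lower. Napb, an attachment protein that recycles SNARE complexes, had 15.04, 19.4, 15.2 and 15.4 CPM in Sham and 3.36, 17.2, 6.06 and 2.24 CPM in FT, so that FT replicate 3 alone entered the Sham range (log2FC -1.62 ± 0.42, DESeq2 adjusted p = 0.00844). Sncb, beta-synuclein, had the opposite direction, at 243, 822, 8.77 and 126 CPM in Sham and 521, 1681, 89.9 and 159 CPM in FT (log2FC 1.39 ± 0.44, DESeq2 adjusted p = 0.0282). Its groups overlapped widely. Syp, synaptophysin, had 3 pairs higher and 1 lower and passed no test (log2FC 0.63 ± 0.35). The median was -0.11, -0.65, -0.35 and -0.06 without replicates 1, 3, 4 and 5, and DESeq2 called 3 lower and 0 higher without replicate 3.

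The GABA group had 6 of 8 members below 0 (median -0.85), 3 lower and 0 higher at p under 0.05 and 2 lower by DESeq2. Gabrb2, a beta subunit of the GABA-A receptor, had 7.12, 10.03, 6.82 and 10.1 CPM in Sham and 2.65, 2.59, 5.06 and 2.24 CPM in FT, with no overlap (log2FC -1.44 ± 0.40, edgeR adjusted p = 0.174, DESeq2 adjusted p = 0.0357). Gabrg1, a gamma subunit, was lower in all 4 pairs (log2FC -0.87 ± 0.29, DESeq2 adjusted p = 0.0996). DESeq2 called 0 members without replicate 3. For Gabrd, the delta subunit of extrasynaptic receptors, 2 pairs were higher and 2 lower (log2FC 0.02 ± 0.33), and its sign turned with DESeq2, with another scaling and without replicate 1 or 3.

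Glutamate genes had 6 of 14 members lower and 2 higher at p under 0.05 (median -0.63, or -0.29 without replicate 5), and DESeq2 called 1 lower and 0 higher, or 0 without replicate 3. At that p 14.3% were higher and 42.9% lower, against 30.1% and 12.6% of named transcripts. DESeq2 called 7.14% lower, near the 7.21% of named transcripts. Lrrtm2, a postsynaptic adhesion protein, was lower in 4 of 4 pairs, from 6.54, 8.41, 13.4 and 14.3 CPM in Sham to 3.55, 3.24, 9.41 and 5.86 CPM in FT (log2FC -0.98 ± 0.33, edgeR adjusted p = 0.223). Grin2c, an NMDA receptor subunit, had 13.6, 13.3, 15.04 and 12.8 CPM in Sham and 19.6, 29.5, 20.7 and 23.5 CPM in FT. Grin2c had no overlap. Slc38a5, a glutamine transporter, had none by its scaled values only. Replicate 3 was its highest Sham and lowest FT sample, with 39 reads in Sham and 39 in FT, a near tie. The log2FC of Slc38a5 and Grin2c, 0.95 ± 0.32 and 0.74 ± 0.27, passed neither tool. Slc17a6 had 315, 249, 395 and 358 CPM in Sham and 145, 115, 411 and 274 CPM in FT, lower in replicates 1, 3 and 5 and slightly higher in replicate 4 (log2FC -0.64 ± 0.28, edgeR adjusted p = 0.306).

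Ion channels had 14 of 19 members below 0 (median -0.43, or -0.77 without replicate 3 and -0.17 without replicate 5), with 3 higher and 5 lower at p under 0.05. DESeq2 called 2 higher and 2 lower, and without replicate 3 it called 1 lower. At p under 0.05, 15.8% were higher and 26.3% lower, against 30.1% and 12.6% of named transcripts. By DESeq2 the shares were 10.5% and 10.5%, against 15.5% and 7.21%. Clcn4, a chloride-proton exchanger, had 71.1, 32.4, 97.7 and 82.1 CPM in Sham and 19.1, 17.2, 60.6 and 54.7 CPM in FT (log2FC -1.02 ± 0.28, DESeq2 adjusted p = 0.0385). Cacnb4, a calcium channel beta subunit, was lower in all 4 pairs (log2FC -0.77 ± 0.25, DESeq2 adjusted p = 0.097). Kcng4 and Kcnk15, which encode potassium channel subunits, were higher in all 4 pairs (log2FC 0.90 ± 0.25 and 0.97 ± 0.29, DESeq2 adjusted p = 0.0689 and 0.0885). Of 10 general neuronal markers 5 were above and 5 below 0 (median 0.03, and from -0.20 to 0.17 with one pair left out), and DESeq2 called Celf4, an RNA-binding protein of neurons, lower (log2FC -1.79 ± 0.48, DESeq2 adjusted p = 0.00843).

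Region markers within PVN also differed in places between FT and Sham. Tcf7l2 had 542, 529, 381 and 417 CPM in Sham and 569, 576, 436 and 374 CPM in FT (log2FC 0.06 ± 0.25, edgeR adjusted p = 0.924), and its sign turned when replicate 1 or 3 was left out. The other 4 measured thalamic markers were lower at p under 0.05, and DESeq2 called Rora and Cartpt lower, or Cartpt alone without replicate 3. Shares lower of this list were 80.0% at that p and 40.0% by DESeq2, against 12.6% and 7.21% of named transcripts. Rora had 14.9, 25.9, 13.1 and 17.9 CPM in Sham and 7.49, 13.3, 9.55 and 8.10 CPM in FT (log2FC -0.89 ± 0.29, DESeq2 adjusted p = 0.0994). Cartpt had 12.6, 24.3, 68.3 and 15.5 CPM in Sham and 9.68, 37.3, 3.63 and 2.04 CPM in FT, lower in 3 of 4 pairs (log2FC -1.68 ± 0.71, DESeq2 adjusted p = 0.0592). Summed over the 5 thalamic markers, Sham ranged from 829 to 895 CPM and FT from 663 to 868 CPM. Summed over Avp, Oxt and Ucn, the 3 named genes of the hypothalamic list, Sham ranged from 0.0569 to 35.0 CPM and FT from 0.198 to 396 CPM. The part of such differences between punches in the treatment results was not tested.

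Peptides and their processing gave few calls. Of 10 neuropeptides past the filter DESeq2 called Cartpt and Ghrl, the ghrelin precursor, both lower (Ghrl log2FC -1.59 ± 0.38, DESeq2 adjusted p = 0.0742), or Cartpt alone without replicate 3. Shares called were 0.0% higher and 20.0% lower, against 15.5% and 7.21% of named transcripts. Nmb, neuromedin B, had no overlap, at 2.54, 2.27, 2.92 and 1.76 CPM in Sham and 6.13, 7.45, 5.42 and 4.68 CPM in FT, but was not called (log2FC 1.28 ± 0.37, DESeq2 adjusted p = 0.103). Gal, galanin, had 4.14, 2.27, 1.81 and 4.66 CPM in Sham and 38.5, 22.4, 1.85 and 2.83 CPM in FT (log2FC 1.42 ± 0.68). Its high FT values were those of replicates 1 and 3, the same FT samples in which Oxt and Avp were highest. All 5 measured markers of neighbouring hypothalamic nuclei, Gal among them, were above 0 (median 0.49, or 0.29 without replicate 3 and 1.14 without replicate 4) and none reached p under 0.05. Cck, cholecystokinin, was higher in 3 of 4 pairs (log2FC 0.69 ± 0.31).

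In the peptide processing and granule group DESeq2 called 1 of 13 higher and 3 lower (median -0.08, or -0.19 without replicate 1, -0.18 without replicate 3 and 0.22 without replicate 5), or Vgf alone, higher, without replicate 3. Shares called were 7.69% higher and 23.1% lower, against 15.5% and 7.21% of named transcripts. Vgf, a granule protein and peptide precursor, had 24.1, 36.9, 23.95 and 12.9 CPM in Sham and 45.2, 66.4, 54.01 and 54.7 CPM in FT, with no overlap (log2FC 1.251 ± 0.28, edgeR adjusted p = 0.148, DESeq2 adjusted p = 0.0128). Atp6ap2, the prorenin receptor and a proton pump accessory protein, had 339, 185, 386 and 209 CPM in Sham and 164, 101, 185 and 131 CPM in FT. Syt4, a synaptotagmin of dense-core granules, was lower as well, and for both each FT value lay below each Sham value (log2FC -0.91 ± 0.24 and -0.92 ± 0.26, DESeq2 adjusted p = 0.0189 and 0.0372). Ptprn, a receptor-like phosphatase of the granule membrane, was higher in 4 of 4 pairs (log2FC 0.85 ± 0.28, DESeq2 adjusted p = 0.101).

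Of the serotonin and monoamine genes all 7 past the filter were above 0 (median 0.45), and 2 were higher at p under 0.05 (28.6%, against 30.1% of named transcripts). DESeq2 called 1 higher and 0 lower, or 0 without replicate 3. The group median rested on single pairs, as it was 1.34, 1.04, -0.29 and 0.70 in pairs 1, 3, 4 and 5, and the median log2FC was 0.03, 0.26 and 1.10 without replicates 1, 3 and 4. The call was Spr, sepiapterin reductase, which completes tetrahydrobiopterin, the cofactor of monoamine synthesis. Spr had 22.9, 27.2, 11.8 and 9.44 CPM in Sham and 44.01, 73.9, 16.1 and 23.1 CPM in FT (log2FC 1.03 ± 0.27, edgeR adjusted p = 0.167, DESeq2 adjusted p = 0.0453). Ppp1r1b, the phosphatase inhibitor DARPP-32, was higher in 3 of 4 pairs (log2FC 0.79 ± 0.32). Htr1a, the serotonin 1A receptor, had 12, 0, 2 and 3 reads in Sham and 7, 0, 1 and 0 in FT, too few to be tested, so that a difference was not detectable at this depth.

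Of 9 genes of the stress axis and steroid signalling 3 were higher (33.3%, against 30.1% of named transcripts) and 1 lower at p under 0.05 (median -0.15). DESeq2 called 2 higher and 0 lower, or 0 without replicate 3. The median was -0.08, 0.03, -0.06 and -0.05 without replicates 1, 3, 4 and 5. Fkbp4, a co-chaperone of steroid receptors, had 132, 172, 101 and 126 CPM in Sham and 468, 329, 161 and 163 CPM in FT, with Sham replicate 3 inside the FT range (log2FC 0.95 ± 0.29, DESeq2 adjusted p = 0.0719). Agt, angiotensinogen, which astrocytes make in the brain, was the other call (log2FC 0.97 ± 0.30, DESeq2 adjusted p = 0.0306). DEPP, a transcript inducible by progesterone, had 2.11, 0.324, 1.39 and 1.251 CPM in Sham and 6.32, 0.648, 3.35 and 5.40 CPM in FT, higher in 4 of 4 pairs and not called (log2FC 1.62 ± 0.41). Nr3c2, the mineralocorticoid receptor, had 0.944, 3.24, 2.44 and 7.22 CPM in Sham and 0.323, 3.89, 3.14 and 3.43 CPM in FT, with 2 pairs higher and 2 lower (log2FC -0.45 ± 0.46).

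The immediate early gene Fos, a marker of recent neuronal activity, had 25.3, 21.4, 4.74 and 18.3 CPM in Sham and 54.2, 40.5, 29.6 and 24.6 CPM in FT. FT was higher in 4 of 4 pairs, and Sham replicate 1 alone reached into the FT range (log2FC 1.248 ± 0.36, edgeR adjusted p = 0.182, DESeq2 adjusted p = 0.0395). Cyr61, a matrix protein induced by growth factors, was higher in 3 of 4 pairs (log2FC 1.08 ± 0.47) and not called. DESeq2 called 1 of the 3 measured immediate early genes, Fos, and 0 without replicate 3 (median log2FC 1.08, or 0.59 without replicate 5).

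Dbp, a clock-controlled transcription factor, had 49.9, 45.96, 81.5 and 64.3 CPM in Sham and 123, 92.7, 183 and 214 CPM in FT. Cirbp, an RNA-binding protein induced by cold, had 165, 86.4, 119 and 100.4 CPM in Sham and 291, 175, 306 and 910.3 CPM in FT. For both, every FT sample exceeded every Sham sample, at log2FC 1.31 ± 0.24 and 1.57 ± 0.38, with DESeq2 adjusted p of 0.00137 and 0.00638 and edgeR adjusted p of 0.114 and 0.162. DESeq2 called both without replicate 3 as well.

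**Figure D4:**
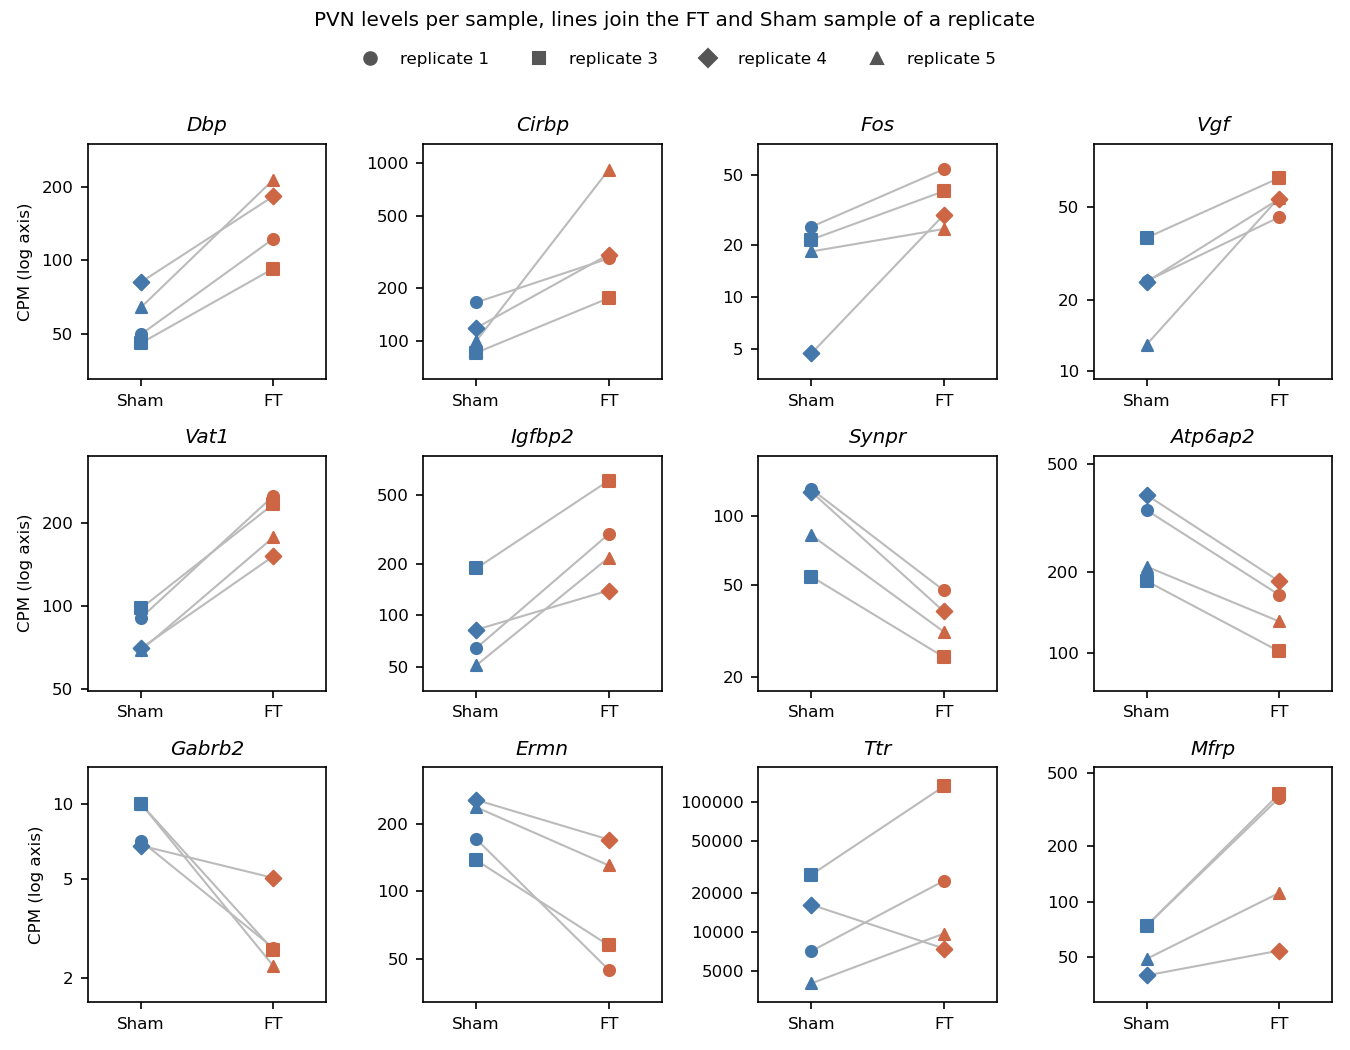
CPM in each PVN sample on a log axis (y) for 12 genes in Sham and FT (x), with lines joining the FT and Sham sample of one replicate number. All 4 lines rise for Dbp, Cirbp, Fos, Vgf, Vat1, Igfbp2 and Mfrp and fall for Synpr, Atp6ap2, Gabrb2 and Ermn, while for Ttr 3 rise and that of replicate 4 falls.

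Markers of non-neuronal cells were divided. Of 20 oligodendrocyte markers 12 were below 0 (median -0.45), with 3 higher and 9 lower at p under 0.05 and 4 lower and 0 higher by DESeq2, or 0 called without replicate 3. At that p 15.0% were higher and 45.0% lower, against 30.1% and 12.6% of named transcripts. By DESeq2 the shares were 0.0% and 20.0%, against 15.5% and 7.21%. Ermn, ermin, a cytoskeletal protein of myelinating cells, had 172, 138, 257 and 238 CPM in Sham and 44.6, 57.4, 171 and 131 CPM in FT (log2FC -1.16 ± 0.28, edgeR adjusted p = 0.159, DESeq2 adjusted p = 0.00863). Ugt8, an enzyme of myelin galactolipid synthesis, was lower in all 4 pairs (log2FC -0.82 ± 0.25, DESeq2 adjusted p = 0.0711). Sox10, the lineage transcription factor, had 17.4, 35.3, 25.5 and 30.7 CPM in Sham and 49.4, 52.8, 43.2 and 45.9 CPM in FT. All 4 FT values exceeded all Sham values, and it was not called (log2FC 0.86 ± 0.26). Summed over the 20 markers, Sham ranged from 2629 to 4797 CPM and FT from 2306 to 3547 CPM.

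Astrocyte markers had 9 of 14 above 0 (median 0.41), 6 higher and 2 lower at p under 0.05 and 5 higher and 0 lower by DESeq2, or 2 higher and 1 lower without replicate 3. Shares at that p were 42.9% higher and 14.3% lower, against 30.1% and 12.6% of named transcripts. By DESeq2 they were 35.7% and 0.0%, against 15.5% and 7.21%. Slc7a10, a serine transporter, had 9.52, 22.3, 23.5 and 39.4 CPM in Sham and 32.2, 40.5, 56.1 and 78.98 CPM in FT, higher in each pair with overlapping groups (log2FC 1.22 ± 0.26, edgeR adjusted p = 0.146, DESeq2 adjusted p = 0.00843). Kcnj10, the inward rectifier of astrocytes, was lower in 3 of 4 pairs (log2FC -1.71 ± 0.58) and Ednrb, an endothelin receptor, in 4 of 4 (log2FC -0.54 ± 0.23), both uncalled with all pairs, and Kcnj10 was the marker that DESeq2 called lower without replicate 3. The summed level ranged from 2557 to 20750 CPM in Sham and from 2597 to 55530 CPM in FT. Its high ends were the replicate 3 libraries, in which Apoe, a lipoprotein and here chosen after its values were seen, reached 15170 CPM in Sham and 41460 CPM in FT.

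Of 7 microglia markers 2 were higher (28.6%, against 30.1% of named transcripts) and 0 lower at p under 0.05. They were C1qa, a complement component, and Pld4, a phospholipase D family member (log2FC 0.94 ± 0.25 and 0.94 ± 0.31). DESeq2 called C1qa, and 0 markers without replicate 3. The summed level was 100.3 to 147 CPM in Sham and 147 to 229 CPM in FT. Of 11 vascular and blood markers 4 were higher (36.4%, against 30.1% of named transcripts) and 0 lower at p under 0.05 (median 0.46, or 0.27 without replicate 1). DESeq2 called Rasip1, a regulator of endothelial junctions, with no overlap (log2FC 1.14 ± 0.30, DESeq2 adjusted p = 0.0475), and 0 markers without replicate 3.

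The choroid plexus and ependyma markers that set PVN apart from MDT had 7 of 9 members above 0 in FT (median 0.80), 4 higher and 0 lower at p under 0.05 and 3 higher and 0 lower by DESeq2, or 0 without replicate 3. Shares higher were 44.4% at that p and 33.3% by DESeq2, against 30.1% and 15.5% of named transcripts. The median was 0.43 without replicate 5 and 1.17 without replicate 4. Mfrp, a frizzled-related membrane protein, had 74.2, 74.1, 39.9 and 49.02 CPM in Sham and 364, 382, 54.4 and 112 CPM in FT (log2FC 1.58 ± 0.34, edgeR adjusted p = 0.146, DESeq2 adjusted p = 0.00179). Tekt4, a protein of motile cilia, had no overlap (log2FC 1.252 ± 0.32, DESeq2 adjusted p = 0.0282). Ttr had 7115, 27420, 16140 and 4027 CPM in Sham and 24630, 130800, 7451 and 9695 CPM in FT. FT was higher in 3 pairs and lower in pair 4, and the log2FC of 1.12 ± 0.81 passed no test. The summed level of the list ran from 4444 to 27700 CPM in Sham and from 8048 to 131500 CPM in FT. The part of these markers in the treatment differences was not tested.

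Whether the difference between FT and Sham in PVN was unlike that in another region was tested as an interaction of region and treatment. Against VMH edgeR called 0 of 14709 transcripts (0.0%), with 113 at an unadjusted p under 0.05, and DESeq2 called 0 of 23294. The log2FC in PVN minus that in VMH was 0.10 ± 0.32 for Dbp, -0.22 ± 0.62 for Synpr, 0.01 ± 0.36 for Vgf and 0.14 ± 0.30 for Vat1 (edgeR adjusted p = 1 for each). These values do not show that the regions responded alike. Against MDT edgeR called 1 of 14518 transcripts (0.00689%), with 1263 at p under 0.05, and DESeq2 called 28 of 6134 (0.456%), 19 with the higher log2FC in PVN (0.31%) and 9 with the higher in MDT (0.147%).

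The transcript that edgeR called against MDT was Avp, at a difference in log2FC of 4.33 ± 0.64 (edgeR adjusted p = 0.0746), to which DESeq2 gave no adjusted p. In MDT Avp had 15, 49, 8 and 19 reads in Sham and 2, 20, 5 and 5 in FT, so that FT had fewer reads in each pair there. In PVN FT had more reads in pairs 1 and 3, most of them in replicate 3. Its pairs 4 and 5 held 0 and 1 reads in Sham and 3 and 2 in FT, too few to give a direction. When the effect of fluoxetine common to PVN and MDT was allowed to vary with replicate number, a fit added after seeing the data, edgeR called Oxt as well as Avp (adjusted p = 0.0143 and 0.0814). In the first fit the Oxt difference was 5.06 ± 1.00 (edgeR adjusted p = 0.573, DESeq2 adjusted p = 0.161). In MDT Oxt had 24, 334, 41 and 27 reads in Sham and 0, 19, 15 and 18 in FT. No transcript was called against MDT, in that first fit, when replicate 1, 3, 4 or 5 was left out. VMH held far more Avp, at 9.10 to 1137 CPM in Sham and 29.1 to 11110 CPM in FT, with replicate 3 the highest in both groups. Among the genes named by the rules used here DESeq2 gave the smallest adjusted p of the difference to Igfbp2 and Mfrp (0.0115 each), Ly6h (0.0149) and Ermn (0.0551). Their log2FC in PVN minus that in MDT was 2.02 ± 0.43, 2.73 ± 0.66, 2.07 ± 0.44 and -1.55 ± 0.38, and the edgeR adjusted p was 0.573 for each. Such a difference also holds any change within MDT. Mfrp is of the choroid plexus and ependyma list, and Ttr of that list differed within MDT. There Ttr ranged from 95.1 to 3543 CPM in Sham and from 21.8 to 79.25 CPM in FT. The part of MDT punches in these differences was not tested.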

How the data were processed

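Per the labels and the study's methods, the authors aligned 76 bp paired-end reads to rn5 with STAR and counted them with HTSeq over 29188 Ensembl transcripts. The deposited values are raw counts, one file per sample, from which the last 5 summary lines were dropped (no-feature reads were 19.6% to 49.3%). The methods name a stranded total RNA kit and the labels polyA RNA. The strand setting of the counting is not given in the sources used here, so overlapping and antisense genes cannot be told apart.

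Transcripts were filtered with filterByExpr, scaled by TMM and tested with edgeR 4.0.16 (quasi-likelihood, R 4.3.3), with the replicate number as a block. A call needed a log2 change of at least 0.322 and, after Benjamini-Hochberg adjustment, a p not above 0.1. DESeq2 1.42.0 and limma 3.58.1 (voom) were alternatives, and the fitting code was tested on simulated data. That test set a limit on the share of false calls for edgeR and limma-voom, and none for DESeq2. The DESeq2 calls are therefore not backed by it in that respect. In each pair, the deviations of FT and Sham from the mean over the pairs of their own group correlated (r = 0.475, 0.744, 0.666 and 0.500 for replicates 1, 3, 4 and 5, over 13881 transcripts), and the study processed same-numbered pools in parallel. Replicates are pools. With the block, p-values measure the spread between pairs of pools in the difference tested, and not the whole spread between pools.

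CPM within PVN use TMM over the PVN samples, and CPM across regions TMM over all samples. Names came from a supplementary sheet (1844 transcripts). The members and gene lists were chosen with earlier results of these data known. Named were the 12 transcripts per direction with the smallest p, a log2 change of at least 0.322 and the same direction in all 4 pairs, the 2 members per direction of each list with the smallest p, and fixed markers, apart from a few genes that are not reported here. Columns of the authors' own comparisons were not used.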

Additional observations from a re-analysis of the deposited data

Results flagged for a closer look

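In groups of 4 samples, a value was marked where its gap to the nearest other sample, as a share of the group's range, exceeded Dixon's 95% limit. For gene levels the gap and the range were taken on a log scale, and for total counts and shares on the values as given. Of 224 groups tested 14 (6.25%) were marked, and chance marks about 1 in 20. The libraries of replicate 3 account for 11 of the 14 marks. Sham replicate 3 had the lowest total count of its group (5334038), and the share of the 50 largest transcripts was highest in replicate 3 of Sham (63.6%) and of FT (65.1%). Sham replicate 3 was the highest Sham sample for Mrps34 (55.3 CPM), Kcng4 (115.2 CPM), Napb (19.4 CPM) and NDUFB4 (39.5 CPM), and the lowest for Mis12 (3.88 CPM). FT replicate 3 was the highest FT sample for NDUFB4 (83.9 CPM) and Cck (475 CPM) and the lowest for B3galt1 (2.27 CPM). The other marks were Heyl in Sham replicate 4 (8.63 CPM, lowest), Arpc4 in FT replicate 4 (179 CPM, lowest) and Nr3c2 in FT replicate 1 (0.323 CPM, lowest).

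Avp was marked because the interaction test called its log2FC in PVN different from that in MDT, by 4.33 (edgeR adjusted p = 0.0746). In MDT FT was below Sham in 4 of 4 pairs. In PVN FT was above Sham clearly in pairs 1 and 3 only. Pairs 4 and 5 held 0 and 1 reads in Sham and 3 and 2 in FT, too few to tell apart. Replicate 3 of FT held 303 of the PVN reads. The cause was not tested.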

How the results depend on the processing

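Fluoxetine against Sham in PVN gave 0 edgeR calls, and 0 with legacy quasi-dispersion, no filter on low counts, an adjusted p of 0.05 or no replicate block (698 at p under 0.05 without the block, 2208 with it). It gave 608 calls with DESeq2, 29 with limma-voom and 12 with RLE size factors, which are all 12 among the DESeq2 calls. Leaving out one pair gave 0 to 3 with edgeR (2 without replicate 1, 3 without replicate 5) and, with DESeq2, 161 without replicate 1, 177 without 3, 311 without 4 and 860 without 5. Replicate pairs 1 and 3 alone gave 3985 calls and pairs 4 and 5 alone 87. Sham PVN against Sham MDT gave 341 in place of 2061 calls without the paired replicate block, and 1107 to 1691 with one replicate left out, 1107 being without replicate 5 and 1146 without replicate 3. DESeq2 gave 2250, no filter 1937 and legacy quasi-dispersion 1956. The interaction with VMH gave 0 under every setting run. That with MDT gave 1 call, 28 with DESeq2, 0 without the block, with legacy quasi-dispersion or with any replicate left out, and 2, Avp and Oxt, with a treatment effect per replicate number. Of 106 named genes tested 7 changed sign in some setting. These were Tcf7l2 (0.06; -0.035 without replicate 1, -0.009 without 3, up to 0.068 without 5), Gabrd (0.02; -0.008 with DESeq2, -0.006 with RLE, -0.193 without 1, -0.351 without 3, up to 0.256 without 4), Ppp5c (-0.39; 0.279 without the block), MT-ATP8 (0.47; -0.135 without 4, -0.047 without 5, up to 1.036 without 1), Cx3cr1 (-0.43; 0.074 without 5, down to -0.861 without 3), Ccdc39 (-0.23; 0.204 without the block) and Tekt1 (-0.16; 0.006 without the block). The cause of these changes was not tested. Among the edgeR counts the block changed no other call, and DESeq2 and limma-voom were not run without it. The treatment effect per replicate number, the legacy setting for the region tests and the list counts without single replicates were chosen after seeing the data. Depth limits Avp, Oxt and Htr1a, at 0 to 3 reads in several libraries.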
